A study of Rattus norvegicus with 12 samples.

Results

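Cornu ammonis 3 (CA3) pyramidal neurons of the hippocampus were compared with granule neurons of the cerebellum (CbG) in 6 of the 12 GeneChip arrays of a study of 4 brain regions. The members were chosen by their titles, as the 3 arrays of hippocampal CA3 and the 3 arrays of the cerebellar granular layer. Each region has biological replicates 1 to 3, and since the methods took all regions from each animal, a replicate number is read as 1 rat. The study asked which transcripts separate neurons that are vulnerable to oxidative stress (CA1 of the hippocampus and CbG) from neurons that resist it (CA3 and cerebral cortex, CTX). All 4 groups came from Fisher 344/BN F1 rats aged 6 months that had received no treatment, and the neurons were taken from frozen brain sections by laser capture microdissection (LCM), a method in which stained cells are lifted off a section under a microscope. A captured layer is not a pure cell type, since glia, vessels and neighboring neurons lie within reach of the laser, and RNA of such small samples was amplified in 2 cycles before hybridization. The arrays report MAS5 signals, a linear brightness per probe set, which is a group of short probes for 1 transcript.

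CA3 pyramidal neurons are large excitatory cells with spiny dendrites, which receive the mossy fibers of the dentate gyrus and excite each other through recurrent collaterals. CbG are the smallest and most numerous neurons of the brain, with a few short dendrites and a thin axon, the parallel fiber, that excites Purkinje cells. Both use glutamate, so the comparison sets 2 excitatory neurons of different lineage, size and circuit against each other: forebrain pyramidal cells carry calcium/calmodulin signaling proteins of dendritic spines, such as neurogranin (*Nrgn*), and CA3 cells the high-affinity kainate receptor subunit *Grik4*, whereas mature granule cells are the main site of the GABA-A receptor subunit *Gabra6*.

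These 3 markers did not follow the labels of 2 arrays, which are called by their labels as CA3-labelled replicate 3 and CbG-labelled replicate 3 below. *Nrgn*, which binds calmodulin in dendritic spines, gave signals of 6294 and 7304 in CA3 replicates 1 and 2 and 21.8 and 24.5 in CbG replicates 1 and 2, but 49.2 in CA3-labelled replicate 3 and 6451 in CbG-labelled replicate 3. *Grik4* read 679.9 and 969 in CA3 replicates 1 and 2, 70.0 and 136 in CbG replicates 1 and 2, 68.0 in CA3-labelled replicate 3 and 621 in CbG-labelled replicate 3. *Gabra6* stood at 5.6 and 38.6 in CA3 replicates 1 and 2 and 3379 and 1283 in CbG replicates 1 and 2, against 2568 and 15.4 in CA3-labelled and CbG-labelled replicate 3. For each marker the 2 replicate 3 arrays thus lay in the range of the other region or next to it, and the 3 arrays of a label overlapped with those of the other label.

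**Figure D1:**
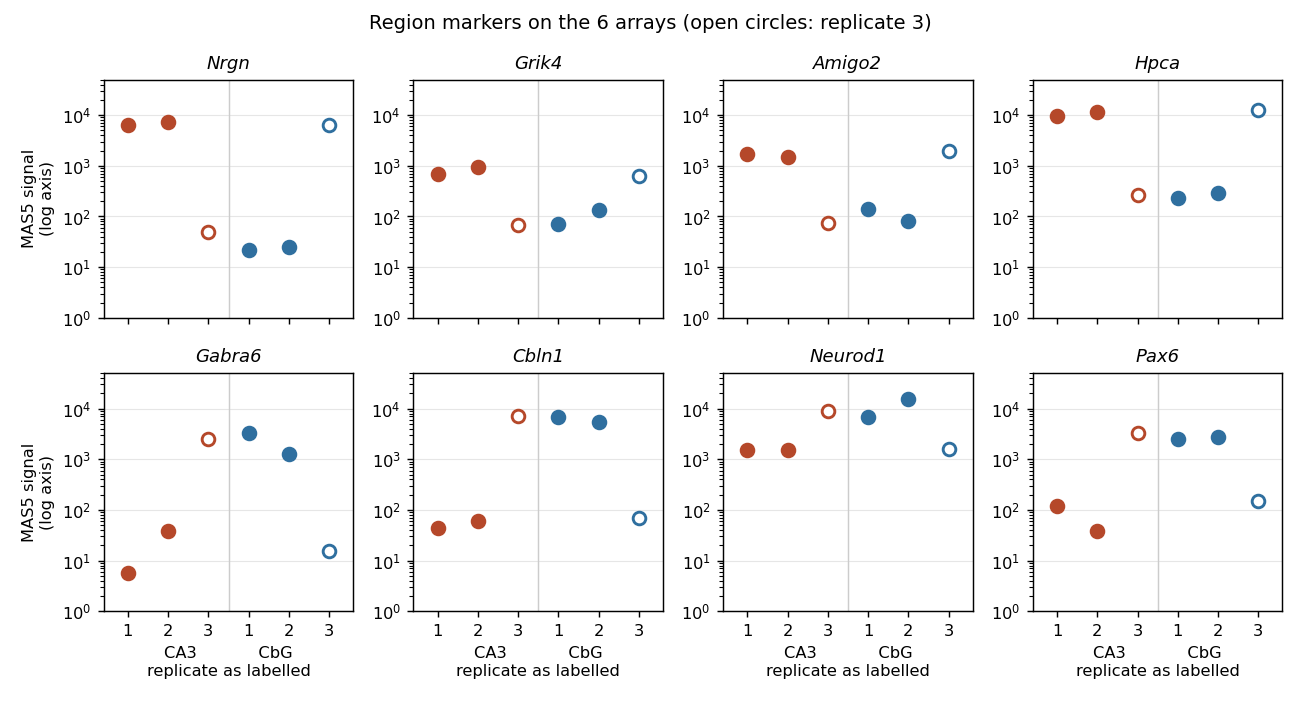
MAS5 signals (log axis) of 4 transcripts of hippocampal or forebrain pyramidal neurons (upper row) and 4 of cerebellar granule neurons (lower row) on the 3 CA3 (red) and 3 CbG (blue) arrays, 1 point per array, with replicate 3 as open circles. In each panel the open red circle lies with the filled blue ones and the open blue circle with the filled red ones, as for *Nrgn* with 49.2 in CA3-labelled replicate 3 and 6451 in CbG-labelled replicate 3.

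The same held over the whole array. Across the 8364 probe sets tested, CA3-labelled replicate 3 correlated at r = 0.952 and 0.921 with CbG replicates 1 and 2 and at 0.656 and 0.637 with CA3 replicates 1 and 2. CbG-labelled replicate 3 correlated at r = 0.969 and 0.952 with CA3 replicates 1 and 2 and at 0.686 and 0.685 with CbG replicates 1 and 2. Among all 11 other arrays of the study, CbG replicate 1 was the closest to the former and CA3 replicate 1 the closest to the latter. CA3 replicates 1 and 2 correlated at 0.957 with each other and CbG replicates 1 and 2 at 0.925. These are correlations across genes within pairs of arrays, and genes are not independent replicates. Hence the comparison is given below first for replicates 1 and 2 alone, with the replicate 3 pair beside it as labelled, and then with all 3 pairs as labelled and with the 2 replicate 3 labels exchanged. What led to the values of these 2 arrays was not tested.

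Array medians lay between 145.5 and 199.3 over the 12 arrays, and the ratio of the 3' to the 5' probe sets of β-actin, which rises as amplified RNA gets shorter, was on the log2 scale 4.01 and 4.45 in CA3 replicates 1 and 2, 3.88 and 6.52 in CbG replicates 1 and 2, and 3.85 and 4.66 in CA3-labelled and CbG-labelled replicate 3. The ratio was highest in CbG replicate 2, but for *Gapdh* it was 2.31 there and highest in CA3-labelled replicate 3 (2.36), so the 2 measures do not order the arrays alike. Signals far below the array median carry little information on level, so a large fold change against such a signal says mainly that the transcript was near the low end in that region. The number of arrays limits the precision throughout, and a p-value measures the spread between the arrays in its fit, those of CA1 and CTX included.

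Over replicates 1 and 2, 2265 of the 8364 probe sets tested (27.1%) were called higher in CA3 and 1315 (15.7%) higher in CbG, at a limma adjusted p (Benjamini-Hochberg) under 0.05 and a difference of at least 1.5-fold. They stood for 1772 and 961 genes with 1 symbol. At least 4-fold differences were reached by 463 probe sets higher in CA3 and 296 higher in CbG, and at least 32-fold differences by 36 and 27. The excess of calls towards CA3 depends on how the arrays are brought to one scale, since the median difference over all probe sets tested was 0.19 on the log2 scale after centering on the array median. With quantile normalization, where that median was 0.02, the calls were 1727 higher in CA3 and 1675 higher in CbG, and without centering, where it was -0.03, 1657 and 1805. List medians given below are read against this 0.19, and list counts against the 27.1% and 15.7% of all probe sets tested. In such captured samples, fewer cells of a type and less RNA of a gene per cell cannot be told apart.

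The replicate 3 pair as labelled ran the other way for nearly all of these probe sets. Its CA3 minus CbG difference had the opposite sign in 2099 of the 2265 probe sets higher in CA3 (92.7%) and in 1292 of the 1315 higher in CbG (98.3%), and it reached 1.5-fold in the same direction in 17 and 5 of them. The median difference of the probe sets higher in CA3 was 1.23 over replicates 1 and 2 and -0.87 in the replicate 3 pair, and that of the probe sets higher in CbG was -1.29 and 1.47 (log2). Over all probe sets tested, the within-rat differences of rats 1 and 2 correlated at r = 0.831, while those of rat 3 correlated at -0.883 with rat 1 and -0.804 with rat 2. When each replicate 3 array was placed between the region means of replicates 1 and 2, CA3-labelled replicate 3 lay nearer the CbG mean in 449 of the 463 probe sets at least 4-fold higher in CA3 (97.0%) and in 292 of the 296 at least 4-fold higher in CbG (98.6%). CbG-labelled replicate 3 lay nearer the CA3 mean in 462 (99.8%) and 274 (92.6%) of them.

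**Figure D2:**
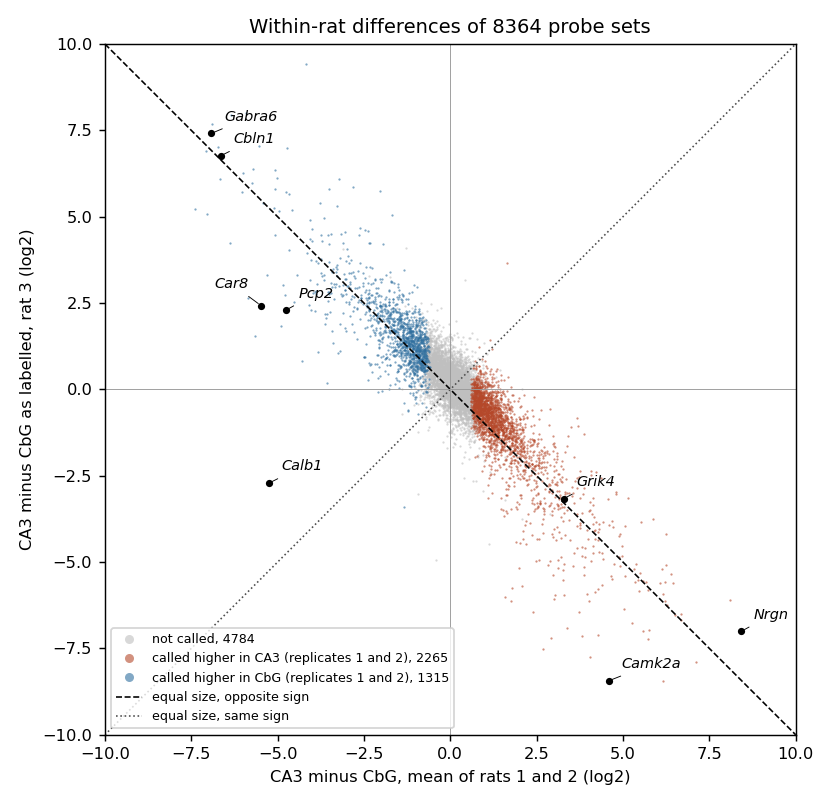
Each point is 1 of 8364 probe sets, with the mean CA3 minus CbG difference of rats 1 and 2 on the x axis and that of rat 3 as labelled on the y axis (both log2, signals centered on the array median), colored by the call over replicates 1 and 2. The cloud follows the dashed line of equal size and opposite sign (r = -0.879), and *Calb1* stands apart on the side of equal sign.

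With 3 replicates as labelled, no probe set was called in either direction (0.0% towards CA3 and 0.0% towards CbG), the smallest limma adjusted p was 0.824, and 279 probe sets had an unadjusted p under 0.05 towards CA3 and 48 towards CbG. By the methods' paired test, 30 and 3 probe sets passed the unadjusted threshold and 0 and 0 after Benjamini-Hochberg adjustment. The median size of a difference was 0.28 on the log2 scale as labelled, against 0.62 over replicates 1 and 2. With the replicate 3 labels exchanged, 2222 probe sets (26.6%) were higher in CA3 and 1704 (20.4%) higher in CbG. Of these, 2005 towards CA3 were also called over replicates 1 and 2 (88.5% of the calls over replicates 1 and 2 and 90.2% of those with exchanged labels), as were 1281 towards CbG (97.4% and 75.2%), and 0 were called in opposite directions. Exchanging labels on the ground of what the arrays showed adds no independent evidence for these genes.

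**Figure D3:**
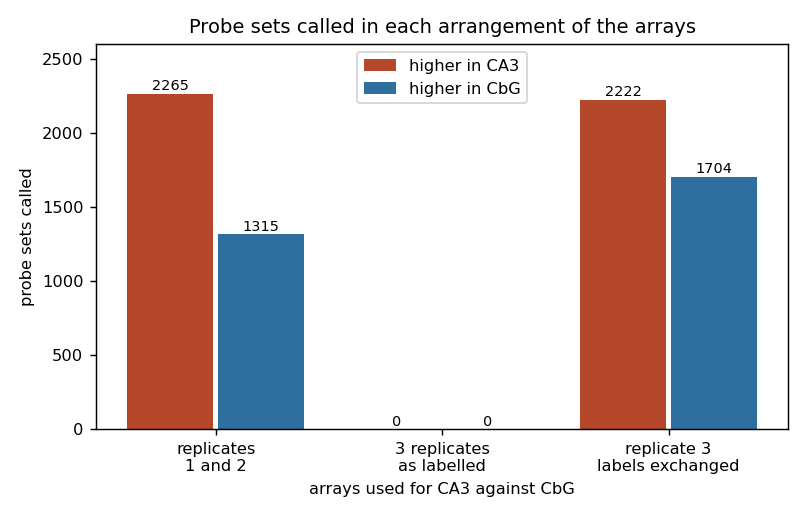
Bars give the number of probe sets called higher in CA3 (red) or in CbG (blue) at a limma adjusted p under 0.05 and at least 1.5-fold, for replicates 1 and 2, for all 3 replicates as labelled, and with the replicate 3 labels exchanged. The counts were 2265 and 1315, then 0 and 0, then 2222 and 1704.

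A contrast of the replicate 3 pair with the other pairs, which restates the reversal described above and takes its spread from the other arrays because 1 pair has none of its own, called 1802 probe sets towards CA3 (21.5%) and 2106 towards CbG (25.2%). The same contrast with the sign of the replicate 3 pair turned called 8 (0.0956%) and 1 (0.012%), although its median standard error of 0.451 (log2) was well above that over replicates 1 and 2, 0.26, so that it detects only large deviations. The transcripts that deviated in this way are described at the end.

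Of the 15 genes with the largest differences towards CA3, *Nrgn* came first. Its log2 difference over 2 rats was 8.42 ± 0.25 (limma standard error, limma adjusted p = 9.52e-08), which corresponds to 344-fold on the signal scale. Standard errors here and below draw on the spread of all arrays in the fit, CA1 and CTX included, and not on the 2 rats alone. *Rgs14*, a regulator of G protein signaling that is abundant in CA2 and neighboring pyramidal cells, gave 1749 and 1746 in CA3 and 8.5 and 6.5 in CbG replicates 1 and 2, with 27.9 and 1936 in CA3-labelled and CbG-labelled replicate 3, and its log2 difference was 8.11 ± 0.22 (adjusted p = 8.23e-08). With all signals under 50 raised to 50, the differences of *Nrgn* and *Rgs14* shrank to 7.31 and 5.36, since their CbG signals lay below that floor. Next came the secreted ligand *Wnt4* (6.68), the actin-binding protein *Enc1* (6.67), the sodium channel subunit *Scn3b* (6.51), the adrenergic receptor *Adra1d* (6.44) and the guanine deaminase *Gda* (6.39). The 8 that followed ranged from 6.28 (*Wipf3*) to 6.06 (*Camkv*, a calmodulin-binding kinase homolog, at its dimmer probe set) and included *Actn2*, an α-actinin that crosslinks actin, the formin *Inf2*, the planar polarity protein *Prickle2* and the transcription factor *Meis2*. The same floor of 50 brought *Wnt4* to 2.91, *Actn2* to 3.41, *Adra1d* to 3.95, *Camkv* to 4.14, *Meis2* to 4.73 and *Gda* to 4.76. It left *Enc1*, *Scn3b* and *Wipf3* at 6.67, 6.51 and 6.28.

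The *Enc1* signals show the pattern of these 15 genes: 9379 and 11868 in CA3 replicates 1 and 2, 184 and 80.4 in CbG replicates 1 and 2, 108 in CA3-labelled replicate 3 and 11390.0 in CbG-labelled replicate 3. All 15 had a replicate 3 difference of the opposite sign, between -8.45 (*Gabra5*) and -5.09 (*Actn2*). *Gda* and *Camkv* were the least even, because 1 CbG array read lower than the other: *Gda* gave 91.8 and 5.2 in CbG replicates 1 and 2, so that its difference was 8.18 without CbG replicate 1 and 4.60 without CbG replicate 2.

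In the other direction *Unc13c* came first. This gene, a vesicle priming factor of cerebellar synapses, gave 8.4 and 6.9 in CA3 and 2055 and 1100.0 in CbG replicates 1 and 2, and 1792 and 49.4 in CA3-labelled and CbG-labelled replicate 3. Its log2 difference was -7.40 ± 0.55 (adjusted p = 1.06e-05), and -4.68 with signals under 50 raised to 50. *Gabra6* differed by -6.92 ± 1.22 (adjusted p = 0.00176), a large error beside that of *Unc13c*, and the value was -4.79 without CA3 replicate 1 and -9.05 without CA3 replicate 2. *Cbln1*, which granule cells secrete to tie parallel fibers to Purkinje dendrites, gave 43.2 and 61.2 in CA3 and 6739 and 5448 in CbG replicates 1 and 2, and 7232 and 68.1 in CA3-labelled and CbG-labelled replicate 3, with a difference of -6.65 ± 0.33 (adjusted p = 1.35e-06). Its signals in replicates 1 and 2 of the 2 regions did not overlap. Such separation was common, since 3591 of the 8364 probe sets tested showed it towards CA3 on centered signals.

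The other transcripts among the 15 largest towards CbG were *Cnksr3* (-7.04), *Exoc3l1* (-6.72), *Nrep* (-6.65), the dense-core vesicle priming factor *Cadps2* (-6.38), the heparan sulfate proteoglycan *Sdc1* (-6.04), the Rac GTPase-activating protein *Chn2* (-6.01), the extracellular guidance protein *Reln* (-5.91), the receptor tyrosine kinase *Ret* (-5.86), the phospholipase *Plcb4* (-5.73), the giant cadherin *Fat2* (-5.71), the kinesin *Kif13a* (-5.65) and the dynamin *Dnm3* (-5.55). In the replicate 3 pair all 15 ran the other way, from 1.56 (*Kif13a*) to 8.01 (*Reln*). A second probe set of *Reln* gave brighter signals, 249 and 589 in CA3 and 12847 and 14935 in CbG replicates 1 and 2, and a difference of -4.95. *Ret* rested on uneven arrays, with 72.3 and 1.4 in CA3 and 773 and 604 in CbG replicates 1 and 2, and was -3.42 without CA3 replicate 2. *Kif13a* was -3.40 without CA3 replicate 1. With signals under 50 raised to 50, *Exoc3l1* shrank to -3.06, *Sdc1* to -2.75, *Kif13a* to -2.55 and *Dnm3* to -2.22, while *Nrep*, *Chn2* and *Plcb4* kept -6.65, -6.01 and -5.73. The *Sdc1* call was lost when limma used a trend and robust prior (-6.04, adjusted p = 0.0673), and its second probe set, called higher in CbG, gave -4.02.

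Of 20 granule cell markers, 16 were on the array and 14 were tested. Of these, 13 were called higher in CbG and 0 higher in CA3, with a median log2 difference of -4.85 against 0.19 over all probe sets tested, and 14 with the labels exchanged. A gene that passes the filter on low signals only through the region where it is high had to differ, so the counts of such lists describe the genes that could be measured. The summed signal of the 16 markers was 5339 and 5643 in CA3 replicates 1 and 2, 72760.0 and 75400.0 in CbG replicates 1 and 2, 80120.0 in CA3-labelled replicate 3 and 6098 in CbG-labelled replicate 3. *Neurod1*, a basic helix-loop-helix factor of granule cell differentiation, was well above the low end in both regions, with 1540.4 and 1510.2 in CA3 and 6868 and 15335 in CbG replicates 1 and 2. It read 8829 and 1622 in CA3-labelled and CbG-labelled replicate 3 and differed by -2.52 ± 0.45 (adjusted p = 0.00185).

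The remaining granule markers differed over a wide range. The homeobox factor *Pax6* (-5.07), the calcium buffer calretinin, *Calb2* (-4.74), and the extrasynaptic GABA-A subunit *Gabrd* (-4.06) stood between -6.01 for *Chn2* and -2.40 for the presynaptic glutamate receptor *Grm4*. *Tiam1*, an activator of Rac, gave 42.1 and 55.8 in CA3 and 908 and 173 in CbG replicates 1 and 2 and a difference of -2.80, or -1.40 without CbG replicate 1 and -4.20 without CbG replicate 2. The exception was *Kcnd2*, a potassium channel of somatodendritic A-type current, with 2109 and 2368 in CA3 and 5412 and 2714 in CbG replicates 1 and 2 and -0.55 ± 0.28 (adjusted p = 0.137), where CbG replicate 2 read close to CA3. *Zic1* and *Barhl1*, a zinc-finger and a homeobox factor of granule cells, were dim on all 6 arrays, between 6.0 and 97.8 and between 21.9 and 189, and were not tested.

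Of 12 CA3 markers, 9 were on the array and 6 were tested. All 6 were called higher in CA3, beside 27.1% of all probe sets tested, with a median of 2.91. The count was 5 with quantile normalization, 4 without centering and 5 with the labels exchanged. *Grik4* differed by 3.29 ± 0.38 (adjusted p = 0.000166). *Nnat*, a proteolipid of developing and endocrine cells, gave 12136 and 11693 in CA3 and 2880.3 and 1039.8 in CbG replicates 1 and 2, and 491 and 8219.9 in CA3-labelled and CbG-labelled replicate 3, with a difference of 3.01 ± 0.32 (adjusted p = 9.66e-05). *Bok*, a BCL2 family member, differed by 1.86, the zinc-finger factor *Plagl1* by 2.81, the proteoglycan *Spock1* by 1.79 and the lysyl oxidase homolog *Loxl1* by 3.27, where CbG replicate 1 read 196 and CbG replicate 2 8.7. The calls of 3 of the 6 rested on single arrays. The *Loxl1* call was lost without CA3 replicate 1 (3.38, adjusted p = 0.0999), CA3 replicate 2 (3.15, adjusted p = 0.141) or CbG replicate 2 (0.95, adjusted p = 0.393), and the difference was 5.59 without CbG replicate 1. That of *Plagl1* was lost without CA3 replicate 2 (2.21, adjusted p = 0.141) or CbG replicate 1 (1.95, adjusted p = 0.142), and that of *Spock1* without CA3 replicate 1 (1.71, adjusted p = 0.0855), CA3 replicate 2 (1.87, adjusted p = 0.0754) or CbG replicate 1 (1.36, adjusted p = 0.126). *Spock1* was not called with the labels exchanged either (1.54, adjusted p = 0.0619). *Socs2*, *Homer3* and *Col6a1* were too dim to be tested.

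Among the CA3 markers, *Grik4*, *Nnat* and *Plagl1* read higher in CbG-labelled replicate 3 than in CA1, the neighboring hippocampal field. The CA1 signals of the other CA3 markers are not given here. *Grik4* ranged from 16.5 to 45.3 over the 3 CA1 arrays, *Nnat* from 177.6 to 243.6 and *Plagl1* from 2.3 to 3.2. CbG-labelled replicate 3 gave 621, 8219.9 and 365, which for *Grik4* and *Nnat* lay next to CA3 replicates 1 and 2. Among CA2 and CA3a markers, 3 of 5 tested were higher in CA3 and 0 in CbG, beside 27.1% and 15.7% of all probe sets tested. The adhesion protein *Amigo2* gave 1725 and 1509.6 in CA3 and 143 and 82.9 in CbG replicates 1 and 2 and a difference of 4.12 ± 0.26 (adjusted p = 5.1e-06), and neurotrophin 3, *Ntf3*, differed by 1.5. The adenosine receptor *Adora1* had similar signals in both (535 and 656 in CA3 and 487 and 484 in CbG), with a difference of 0.51 ± 0.23 (adjusted p = 0.0935), and *Fgf2* and *Cacng5* were not tested.

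Of 18 forebrain pyramidal markers, 13 were on the array and 10 were tested. Markers that passed the filter on low signals only through CA3 had to differ. All 10 were called higher in CA3, beside 27.1% of all probe sets tested, with a median of 2.99. The count was 8 with quantile normalization, 8 without centering and 9 with the labels exchanged. *Hpca*, hippocalcin, a neuronal calcium sensor, gave 9452 and 11368 in CA3 and 226 and 289.7 in CbG replicates 1 and 2 and 269.5 and 12800.0 in CA3-labelled and CbG-labelled replicate 3, with a difference of 5.57 ± 0.23 (adjusted p = 6.82e-07). The homeobox factor *Lhx2* differed by 5.58, the thyroid hormone-binding protein *Crym* by 3.89 and brain-derived neurotrophic factor, *Bdnf*, by 2.08, a call lost without CA3 replicate 2 (1.81, adjusted p = 0.0573). In the calmodulin kinase group, *Camk2d* ran against *Camk2a*: *Camk2d* gave 1162 and 1067 in CA3 and 11898 and 13456 in CbG replicates 1 and 2, a difference of -3.28 ± 0.23 (adjusted p = 8.89e-06), while *Camk2a*, the α subunit of the same kinase, gave 1589.9 and 1632 and 61.6 and 100.1, a difference of 4.59 ± 0.25 (adjusted p = 2.22e-06). *Camk2b* was bright in both regions, with 7456 and 9649.7 in CA3 and 6231 and 7429 in CbG, and did not pass (0.55 ± 0.24, adjusted p = 0.0976), but its second probe set was called higher in CA3 at 1.99.

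**Figure D4:**
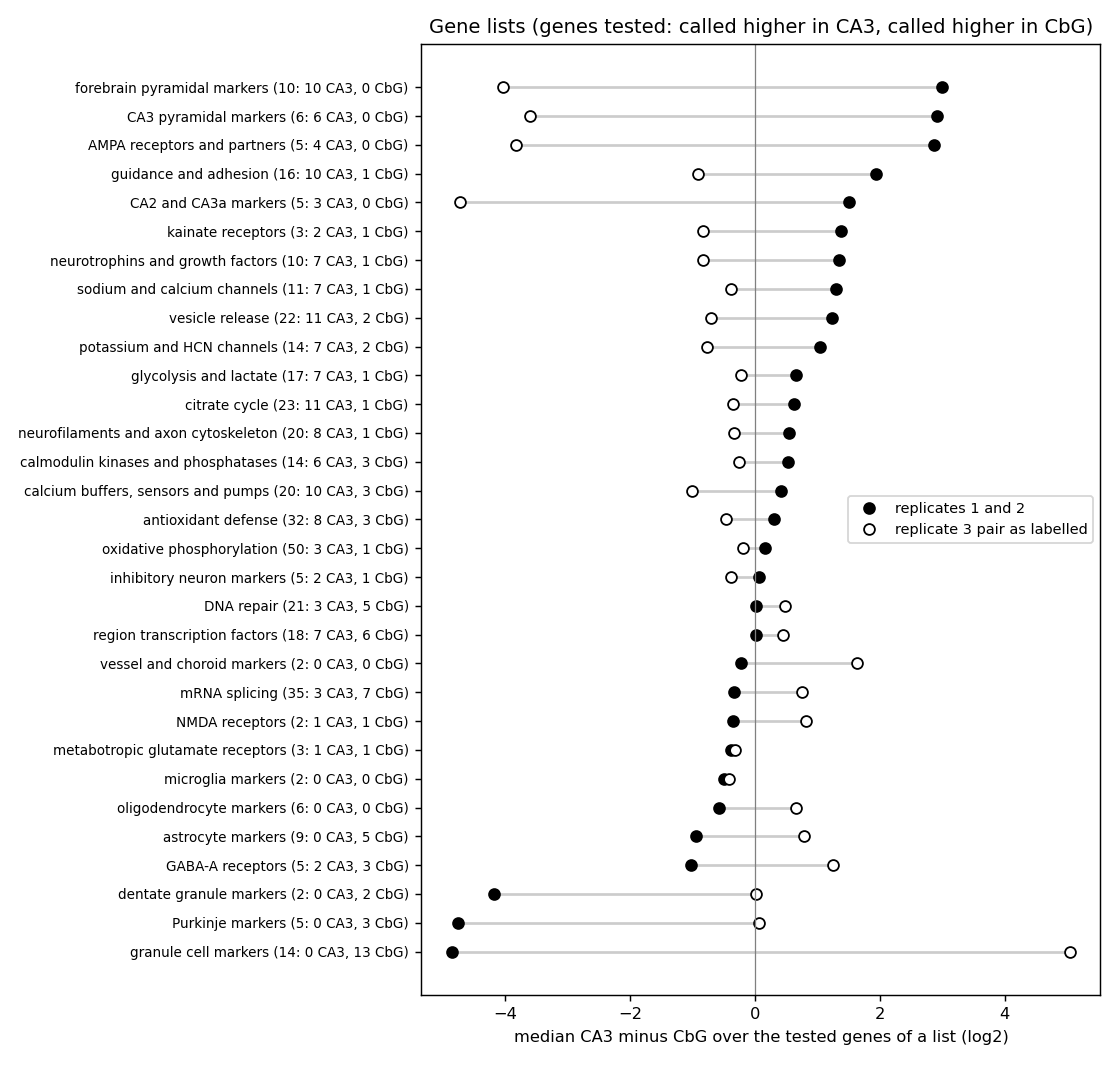
Median CA3 minus CbG difference (log2) over the tested genes of each of 31 gene lists, for replicates 1 and 2 (filled) and for the replicate 3 pair as labelled (open), with the number tested and called beside each name. Most lists far from 0 over replicates 1 and 2 lie well on the other side in the replicate 3 pair, as for granule cell markers (-4.85 and 5.04). The Purkinje markers moved from -4.76 to 0.07 and the dentate granule markers from -4.19 to 0.01, and both lists hold *Calb1*.

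Ionotropic glutamate receptors split by subunit. Of 5 AMPA receptor subunits and partners tested, 4 were higher in CA3 and 0 in CbG, beside 27.1% and 15.7% of all probe sets tested. The 4 were *Gria1* (3.19 ± 0.32, adjusted p = 6.98e-05), *Gria3* (2.87), *Gria2* (1.49) and the auxiliary protein *Cnih2* (4.41). *Cnih2* gave 1998 and 2280.0 in CA3 and 153 and 91.0 in CbG replicates 1 and 2, and 154 and 2228 in CA3-labelled and CbG-labelled replicate 3. *Cacng2*, stargazin, the AMPA receptor partner of granule cells, gave 323 and 265 and 422 and 373, with no call (-0.21 ± 0.25, adjusted p = 0.528). Among kainate receptors *Grik4* and *Grik5* (1.38) were higher in CA3 and *Grik2* (-0.71) in CbG, the call of *Grik2* being lost without CA3 replicate 1 (-0.68, adjusted p = 0.173), CA3 replicate 2 (-0.75, adjusted p = 0.155) or CbG replicate 2 (-0.41, adjusted p = 0.294). The NMDA receptor subunit *Grin2c*, which mature granule cells use, gave 226 and 231 in CA3 and 1648 and 1562 in CbG replicates 1 and 2, a difference of -2.58 ± 0.22 (adjusted p = 2.28e-05). The obligate subunit *Grin1* differed by 1.89 at its brightest probe set, but it was 1 of 6 genes whose probe sets were called in both directions, chosen here after their values were seen (with *Fbxo3*, *Ip6k2*, *Mmp24*, *Tmem248* and *Ube2e3*), so its direction is uncertain.

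All 5 GABA-A receptor subunits tested were called, 2 towards CA3 and 3 towards CbG, beside 27.1% and 15.7% of all probe sets tested. *Gabra5*, a subunit of extrasynaptic receptors of hippocampal pyramidal cells, gave 4239.5 and 3905 in CA3 and 42.9 and 103 in CbG replicates 1 and 2, a difference of 6.16 ± 0.37 (adjusted p = 4.11e-06), and *Gabrb1* differed by 2.69. *Gabra6*, *Gabrd* and *Gabrb2* (-1.03), subunits that granule cells combine, ran the other way. In the replicate 3 pair as labelled, all 5 had the opposite sign, between -8.45 for *Gabra5* and 7.41 for *Gabra6*. Of the 3 metabotropic receptor genes tested, the scaffold *Homer1* was higher in CA3 (1.57) and *Grm4* in CbG.

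Of 14 potassium and HCN channel genes tested, 7 were higher in CA3 and 2 in CbG, beside 27.1% and 15.7% of all probe sets tested. *Kcnc1*, the Kv3.1 subunit of fast-spiking cells, was bright in CbG: 1089.5 and 1581 in CA3 and 10765 and 10904 in CbG replicates 1 and 2, 9980.2 and 969 in CA3-labelled and CbG-labelled replicate 3, and a difference of -2.82 ± 0.31 (adjusted p = 0.000124). Its paralog *Kcnc2* ran towards CA3 (1.62), as did the channel-interacting protein *Kcnip2* (4.13 ± 0.26, adjusted p = 5.1e-06) and the β subunit *Kcnab2* (2.45). *Kcna4*, an A-type channel subunit, differed by 5.50, but CbG replicate 1 read 1.4 and CbG replicate 2 65.0, so that the difference was 2.69 without CbG replicate 1 and 8.32 without CbG replicate 2. Among 11 sodium and calcium channel genes, 7 were higher in CA3 and 1, *Cacnb4* (-2.38), in CbG (7 and 2 with quantile normalization). The calcium channel β subunits *Cacnb1* (5.87, or 2.45 with signals under 50 raised to 50) and *Cacnb2* (3.10) and the α2δ subunits *Cacna2d3* (4.00) and *Cacna2d1* (1.79) were higher in CA3. *Scn3b* led the list with 4165 and 6874 in CA3 and 72.6 and 65.3 in CbG replicates 1 and 2.

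Calcium buffers and sensors also divided by paralog. Of 20 genes tested, 10 were higher in CA3 and 3 in CbG (7 and 4 with quantile normalization), beside 27.1% and 15.7% of all probe sets tested. *Hpcal1*, a relative of *Hpca*, gave 203 and 341 in CA3 and 8924 and 6158 in CbG replicates 1 and 2, a difference of -4.59 ± 0.32 (adjusted p = 8.65e-06), opposite to *Hpca*. Neurocalcin δ, *Ncald*, was higher in CA3 (4.72). The calmodulin gene *Calm2* (13206 and 19748 in CA3 and 13752 and 26492 in CbG replicates 1 and 2), the sensor *Vsnl1* and the growth cone protein *Gap43* were bright in both regions and did not pass, with differences of -0.01, 0.10 and 0.16 and adjusted p of 0.973, 0.735 and 0.592. A second probe set of *Vsnl1* was called higher in CA3 (0.92).

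Among 22 vesicle release genes tested, 11 were higher in CA3 and 2, *Unc13c* and *Cadps2*, in CbG, beside 27.1% and 15.7% of all probe sets tested. *Syt5*, a synaptotagmin, differed by 3.85, the SNARE protein *Stx1a* by 3.27, synapsin I, *Syn1*, by 2.56 and the vesicular zinc transporter *Slc30a3*, which loads zinc into mossy fiber and other forebrain terminals, by 3.18 ± 0.23 (adjusted p = 1.04e-05), with 1251 and 1328 in CA3 and 157 and 177 in CbG replicates 1 and 2. *Snap25*, the partner of *Stx1a*, gave 17906 and 25776 in CA3 and 17806 and 25479 in CbG replicates 1 and 2 and did not pass (0.24 ± 0.25, adjusted p = 0.47). *Cplx1* varied more between the CbG arrays (14242 and 3413) than between the regions (0.60 ± 0.51, adjusted p = 0.363).

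Of 20 neurofilament and axon cytoskeleton genes tested, 8 were higher in CA3 and 1 in CbG (5 and 2 with quantile normalization), beside 27.1% and 15.7% of all probe sets tested. The 3 neurofilament subunits, which fill thick axons, were all higher in CA3: *Nefl* by 3.66 ± 0.32 (adjusted p = 3.14e-05), *Nefh* by 2.49 and *Nefm* by 1.95. *Nefl* gave 4661 and 5176 in CA3 and 454 and 452 in CbG replicates 1 and 2, with 293 and 4602 in CA3-labelled and CbG-labelled replicate 3. *Stmn1*, stathmin, which destabilizes microtubules, ran towards CbG (-1.56), while its relatives *Stmn2* and *Stmn3* did not pass (-0.19 and 0.44, adjusted p = 0.552 and 0.171) at their brightest probe sets, but a second one of *Stmn2* (-1.0) was called higher in CbG, as was *Stmn1*. The microtubule proteins *Tubb3* (1.59) and tau, *Mapt* (1.1), were higher in CA3, the latter losing its call with quantile normalization (0.80, adjusted p = 0.0723), without CA3 replicate 2 (1.00, adjusted p = 0.106) and without CbG replicate 2 (0.64, adjusted p = 0.136).

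Of 16 guidance and adhesion genes tested, 10 were higher in CA3 and 1 in CbG, beside 27.1% and 15.7% of all probe sets tested. The 1 higher in CbG was the cell adhesion protein *Cntn2* (-2.22), named after its value was seen. The receptor *Epha4* gave 8862 and 11626 in CA3 and 269.6 and 186 in CbG replicates 1 and 2 and 168 and 9642 in CA3-labelled and CbG-labelled replicate 3, with a difference of 5.73 ± 0.26 (adjusted p = 9.1e-07). *Epha5* (4.67), neuropilin 1, *Nrp1* (4.58), the semaphorin *Sema3c* (4.18) and the plexin *Plxna1* (2.61) followed. Of 10 neurotrophin and growth factor genes, 7 were higher in CA3, led by *Fgf13* (3.16), which binds sodium channels, and 1, *Vegfa* (-1.60), in CbG. The receptors *Fgfr1* (1.47) and *Gfra1* (1.37) were higher in CA3, and *Ntrk3*, the receptor of *Ntf3*, did not pass (0.30, adjusted p = 0.321).

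Transcription factors of regional identity went both ways, 7 of 18 tested towards CA3 and 6 towards CbG, beside 27.1% and 15.7% of all probe sets tested. Besides *Meis2* and *Lhx2*, the mineralocorticoid receptor *Nr3c2* (2.54 ± 0.22, adjusted p = 3.03e-05) was higher in CA3. *Nr3c2* gave 2411 and 2663 in CA3 and 567 and 457 in CbG replicates 1 and 2, and 551 and 3019.6 in CA3-labelled and CbG-labelled replicate 3. *Nfib*, *Klf9* and *Zbtb18* were at like signals in both regions and did not pass, with differences of -0.24, 0.26 and 0.26. *Prox1*, a homeobox factor of dentate granule cells that was listed to detect RNA of that neighboring layer, was lower in CA3 (109 and 88.0) than in CbG (1061 and 934), a difference of -3.12.

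Of 32 genes of antioxidant defense tested, 8 were higher in CA3 and 3 in CbG (5 and 4 with quantile normalization), against 27.1% and 15.7% of all probe sets tested, with a median of 0.30 against 0.19 over all probe sets tested. *Nfe2l2*, the transcription factor NRF2 that turns on antioxidant genes, gave 126 and 19.4 in CA3 and 679 and 679 in CbG replicates 1 and 2, 519.5 and 89.1 in CA3-labelled and CbG-labelled replicate 3, and a difference of -3.55 ± 0.59 (adjusted p = 0.00123), and -2.26 without CA3 replicate 2. *Mgst1*, a microsomal glutathione transferase, also ran towards CbG (-3.19, and -1.80 without CA3 replicate 2). Metallothionein 3, *Mt3* (1.81), and the glutathione transferases *Gsta4* (1.32) and *Mgst3* (1.26) ran towards CA3, as did catalase, *Cat* (1.19), which lost its call without CA3 replicate 2 (1.17, adjusted p = 0.0654) or CbG replicate 1 (0.73, adjusted p = 0.084). The superoxide dismutase *Sod1*, with 4961 and 4830.4 in CA3 and 4614 and 5400.0 in CbG replicates 1 and 2, did not pass (0.20 ± 0.24, adjusted p = 0.522).

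Energy genes were read against the 27.1% of all probe sets tested that were higher in CA3 and the 15.7% higher in CbG. Of 17 glycolysis and lactate genes tested, 7 were higher in CA3 and 1, *Aldoc* (-1.90), in CbG, and of 23 citrate cycle genes 11 and 1 (7 and 2 with quantile normalization). Of 50 subunits of oxidative phosphorylation, 3 were higher in CA3 and 1 in CbG (1 and 4 with quantile normalization), with a median of 0.16, below that of all probe sets tested. Lactate dehydrogenase A, *Ldha*, gave 7316 and 8527 in CA3 and 1407 and 1758 in CbG replicates 1 and 2, 1665 and 6949 in CA3-labelled and CbG-labelled replicate 3, and a difference of 2.56 ± 0.30 (adjusted p = 0.000155). The aldolase *Aldoc*, which astrocytes also carry, was not called without CA3 replicate 2 (-1.39, adjusted p = 0.118) or CbG replicate 2 (-0.82, adjusted p = 0.0616), and was -2.98 without CbG replicate 1. Enolase 1, *Eno1*, differed by 2.00 ± 0.22 (adjusted p = 0.000114), whereas the neuronal enolase *Eno2* gave 7018 and 8224 in CA3 and 7328 and 8122 in CbG and did not pass (0.21, adjusted p = 0.477).

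In the citrate cycle, *Idh3a* (1.62 ± 0.21, adjusted p = 0.000301), the malic enzyme *Me1* (2.51), the citrate lyase *Acly* (1.64) and the pyruvate dehydrogenase subunit *Pdha1* (1.31) were higher in CA3. *Idh3a* gave 1979 and 2138 in CA3 and 792 and 778 in CbG replicates 1 and 2, and 776 and 2254 in CA3-labelled and CbG-labelled replicate 3. *Idh2* alone of its list was higher in CbG (-1.34), and lost its call without CA3 replicate 2 (-0.73, adjusted p = 0.188) or CbG replicate 2 (-0.90, adjusted p = 0.129). The ATP synthase subunits *Atp5f1b* and *Atp5f1c* were bright and even, with differences of 0.17 and 0.06 (adjusted p = 0.631 and 0.886).

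Splicing and DNA repair genes were called in both directions, beside 27.1% of all probe sets tested towards CA3 and 15.7% towards CbG. Of 35 splicing genes tested, 3 were higher in CA3 and 7 in CbG, with a median of -0.33, and 2 and 16 with quantile normalization as well as with the labels exchanged. *Dhx16*, an RNA helicase of the spliceosome, gave 332 and 274 in CA3 and 2020.4 and 1594 in CbG replicates 1 and 2, 2399.9 and 356 in CA3-labelled and CbG-labelled replicate 3, and a difference of -2.34 ± 0.23 (adjusted p = 5.28e-05). *Hnrnph1* (-1.13) and the splicing factor *Srsf1* (-0.99) ran the same way, and *Celf2*, a regulator of alternative splicing, the opposite way (1.67). Of 21 DNA repair genes, 3 were higher in CA3, among them *Rad23b* (1.13) and *Ercc3* (1.05), and 5 in CbG (5 and 5 with the labels exchanged), with a median of 0.02. Those higher in CbG included the DNA ligase *Lig1* (-1.24) and the sliding clamp *Pcna* (-1.20). These were small differences, and single arrays decided several calls. That of *Srsf1* was lost without CA3 replicate 2 (-0.92, adjusted p = 0.0515), that of *Rad23b* without CA3 replicate 2 (1.02, adjusted p = 0.0688), that of *Ercc3* without CA3 replicate 1 (0.85, adjusted p = 0.0729), and that of *Pcna* without CA3 replicate 1, CA3 replicate 2 or CbG replicate 2 (-1.11, -1.29 and -0.80, adjusted p = 0.082, 0.0593 and 0.126).

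Markers of other cell types differed between the regions in some lists and not in others. Of 9 astrocyte markers tested, 5 were called higher in CbG (7 with quantile normalization) and 0 in CA3, with a median of -0.95. Of all probe sets tested, 15.7% were higher in CbG and 27.1% in CA3. The sum over 10 astrocyte markers ranged from 11310.0 to 18530.0 in CA3 replicates 1 and 2 and from 30010.0 to 47190.0 in CbG replicates 1 and 2. The water channel *Aqp4* gave 1027 and 508 in CA3 and 3729 and 5036 in CbG replicates 1 and 2 and differed by -2.36 ± 0.37 (adjusted p = 0.000863), and *Gfap*, the intermediate filament of astrocytes, by -1.30, a call lost without CA3 replicate 2 (-1.11, adjusted p = 0.0765) or CbG replicate 2 (-0.75, adjusted p = 0.0629). The sum was 22790.0 in CA3-labelled replicate 3 and 18740.0 in CbG-labelled replicate 3. No call was made among 6 oligodendrocyte, 2 microglia and 2 vessel markers tested by limma, and 2, 0 and 1 of them were called higher in CbG with the labels exchanged. The part of glial RNA in the differences of other lists was not tested. Of 5 inhibitory neuron markers, *Cck* (5.06) and *Npy* (2.03) were higher in CA3 and *Gad1* (-0.82) in CbG, and single arrays decided the last 2 of these. The *Npy* call was lost without CA3 replicate 2 (0.74, adjusted p = 0.217), CbG replicate 1 (2.19, adjusted p = 0.0536) or CbG replicate 2 (1.88, adjusted p = 0.0993), with 3.33 without CA3 replicate 1, and the *Gad1* call without CA3 replicate 1 (-1.11, adjusted p = 0.0501), CA3 replicate 2 (-0.52, adjusted p = 0.347) or CbG replicate 2 (-0.45, adjusted p = 0.333).

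Purkinje cell transcripts set CbG replicates 1 and 2 apart from CA3-labelled replicate 3. Of 5 Purkinje markers tested, 3 were called higher in CbG, beside 15.7% of all probe sets tested. The summed signal of the 7 on the array was 4041 and 3992 in CA3 replicates 1 and 2 and 16140.0 and 37710.0 in CbG replicates 1 and 2. It was 2780.0 in CA3-labelled replicate 3 and 4403 in CbG-labelled replicate 3. Calbindin, *Calb1*, the calcium buffer that fills Purkinje cells, gave 297 and 90.4 in CA3 replicates 1 and 2, 4181 and 12798 in CbG replicates 1 and 2, 72.0 in CA3-labelled replicate 3 and 482 in CbG-labelled replicate 3. It was therefore high in CbG replicates 1 and 2 alone. Its difference was -5.25 ± 0.62 (adjusted p = 0.000176) over replicates 1 and 2, -2.71 in the replicate 3 pair as labelled, and -2.60 (adjusted p = 0.121) with the labels exchanged.

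*Pcp2*, Purkinje cell protein 2, gave 85.2 and 79.1 in CA3 and 1883 and 3602 in CbG replicates 1 and 2, and 295 and 61.4 in CA3-labelled and CbG-labelled replicate 3. *Car8*, a carbonic anhydrase-related protein of Purkinje cells, gave 72.4 and 194 and 3849.7 and 9877, and 115 and 21.9. Both were called higher in CbG (-4.76 and -5.48, adjusted p = 4.11e-06 and 1.94e-05), also with the labels exchanged (-3.94 and -4.46). Of the 296 probe sets at least 4-fold higher in CbG, 4 had CA3-labelled replicate 3 nearer the CA3 mean: *Calb1*, *Pcp2*, *Car8* and *Vim*, the intermediate filament of glia, which was chosen here after its values were seen. *Vim* gave 150.5 and 47.1 in CA3 and 1215 and 469.8 in CbG replicates 1 and 2 and 233 and 18.7 in CA3-labelled and CbG-labelled replicate 3. Unlike that of *Calb1*, its difference reversed, from -2.94 over replicates 1 and 2 to 3.67 in the replicate 3 pair as labelled. The most abundant granule markers did not share this pattern, as *Reln* (13228 in CA3-labelled replicate 3) and *Cadps2* (9764) were as high there as in CbG replicates 1 and 2 (12847 and 14935, and 9032 and 9101).

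*Pcp4*, a calmodulin regulator of both Purkinje and CA2 cells, was not called over replicates 1 and 2, but its signals were far apart in the replicate 3 pair. It gave 5599 and 5856 in CA3 and 4748 and 16935 in CbG replicates 1 and 2, with no call (-0.42 ± 0.65, adjusted p = 0.628), but 242 in CA3-labelled replicate 3 and 7586 in CbG-labelled replicate 3, a within-rat difference of -4.94. The other Purkinje markers tested, *Itpr1* (-0.78) and *Rgs8* (-0.69), did not pass (adjusted p = 0.0668 and 0.547).

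The other named transcripts for which the sign-turned replicate 3 pair differed from replicates 1 and 2 were neuronal genes of CA3. *Camk2a* read 4.4 in CA3-labelled replicate 3, below the 61.6 and 100.1 of CbG replicates 1 and 2, and 1556 in CbG-labelled replicate 3. *Kcnma1*, the large-conductance calcium-activated potassium channel, read 30.0 there against 370.2 and 494 in CbG replicates 1 and 2, with 1729.8 and 1388 in CA3 replicates 1 and 2. A second probe set of *Kcnma1* did not show such a deviation, with 2.54 over replicates 1 and 2 and -2.99 in the replicate 3 pair as labelled. *Elfn2* (6.6 against 135 and 109.8) and the transcriptional regulator *Mn1* (5.8 against 74.0 and 83.8) showed the same order. Thus, at the probe sets whose signals are given, CA3-labelled replicate 3 read lower for these forebrain transcripts, and for *Calb1*, *Pcp2* and *Car8*, than either CbG replicate 1 or 2. This describes 1 array and genes picked for their deviation. The sign-turned contrast that picked several of them is no independent test of it. The part that the captured tissue had in these values was not tested.

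**Figure D5:**
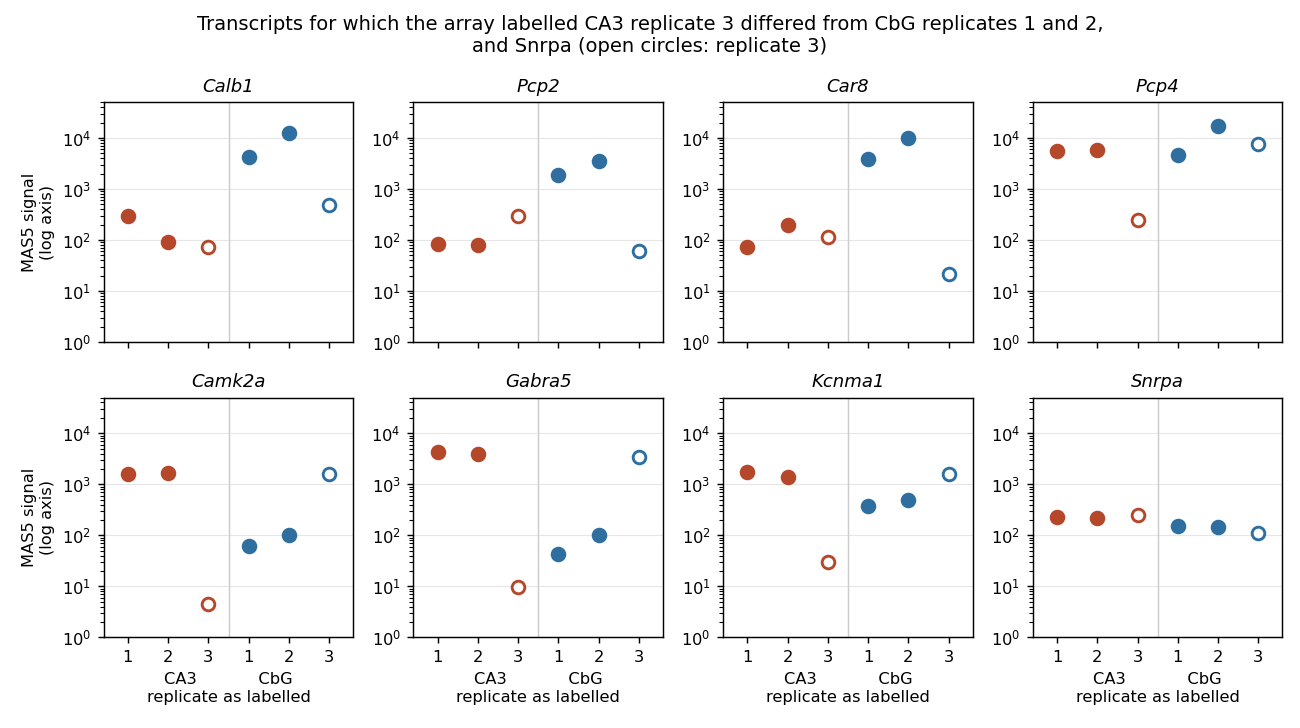
MAS5 signals (log axis) on the 3 CA3 (red) and 3 CbG (blue) arrays, replicate 3 as open circles, of transcripts of Purkinje cells (*Calb1*, *Pcp2*, *Car8* and *Pcp4*) and of forebrain neurons (*Camk2a*, *Gabra5* and *Kcnma1*), and of *Snrpa*. For *Calb1* CA3-labelled replicate 3 read 72.0 against 4181 and 12798 in CbG replicates 1 and 2, and for *Camk2a* 4.4 against 61.6 and 100.1.

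Among named genes whose replicate 3 difference as labelled kept the sign of replicates 1 and 2 were *Snrpa* and *Hk1*. *Snrpa*, a protein of the U1 splicing particle, had within-rat differences of 0.84, 0.80 and 1.23. Its signals were 229, 218 and 250.4 in the 3 CA3 arrays and 154, 143 and 109 in the 3 CbG arrays. Its difference was 0.82 ± 0.21 over replicates 1 and 2 (adjusted p = 0.0114), 0.14 with the labels exchanged (adjusted p = 0.746), and did not pass with 3 replicates as labelled (0.96 ± 0.18, adjusted p = 0.824). The calls of *Snrpa* over replicates 1 and 2 were lost without CA3 replicate 1, CA3 replicate 2 or CbG replicate 2 (0.73, 0.91 and 0.76, adjusted p = 0.0903, 0.054 and 0.055). Hexokinase 1, *Hk1*, had differences of 0.93 and 2.56 in rats 1 and 2 and of 0.07 in rat 3 as labelled, and its call over replicates 1 and 2 (1.75) was lost without CA3 replicate 2 (1.37, adjusted p = 0.0558) and was 1.04 without CbG replicate 2.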

How the data were processed

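Laser-captured neurons of 4 regions were hybridized to 12 arrays, 3 biological replicates per region, and the 6 of CA3 and CbG were compared. The authors scaled each array to a target of 500 in MAS5 and deposited 1 signal intensity per probe set, 15923 in all. The methods name GeneChip Operating Software (GCOS) as the source of the signals, and the labels name MAS5. All 12 columns were matched to a sample by title. The labels number the biological replicates, and the methods took the regions from each animal, so a number is read as 1 rat, which the labels do not state.

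From these intensities, log2 values were centered on each array's median, 57 control probe sets were left out, and the 8364 of 15866 others (52.7%) above the array median in at least 3 of the 6 arrays were tested, since detection calls were not used here. Differences were fitted with limma 3.58.1 in R 4.3.3 with region and rat as terms, over the 10 arrays other than the 2 in doubt (residual degrees of freedom 4) or all 12, with Benjamini-Hochberg adjustment over all probe sets tested. Calls combined a 1.5-fold minimum with an adjusted p under 0.05. The rat was a term because the methods paired regions within rats. Over the 10 arrays the deviations of arrays of 1 rat correlated at a mean r of 0.101 (-0.0465 to 0.185 over 13 pairs), against -0.0545 between rats. Tables and figures used Python 3.11.15 and matplotlib 3.10.9, and the fits were tested on simulated data.

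Symbols came from the platform annotation, updated by gene identifier: 12783 probe sets had 1 symbol, 312 several and 2771 none. A list gene was represented by its probe set with the highest mean signal. The genes named were the 3 markers, the 15 largest differences per direction, all granule, CA3 and CA2/CA3a markers, and, of each other list, up to 6 called members by size and up to 3 not called by signal, plus up to 5 per direction for the sign-turned replicate 3 pair. The members and lists were chosen with earlier results of these data known. Alternatives were the arrays fitted, scaling, filter, floor or offset of 50, prior, replicate block, fold threshold, single arrays and rats left out, exchanged labels and the methods' paired test.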

Additional observations from a re-analysis of the deposited data

How the results depend on the processing

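Counts of calls depended on the filter, the arrays and the test. Over replicates 1 and 2, calls towards CA3 and CbG were 1335 and 836 with no filter on low signals, and ranged from 1258 to 1960 and from 765 to 1292 with 1 CA3 or CbG array, or rat 1 or 2, left out, the lowest without CA3 replicate 2, and were 2200 and 1276 without the replicate 3 arrays of CA1 and CTX, which otherwise share the fit. With no CA1 or CTX array in the fit at all, calls were 1660 and 1009. The methods' paired test gave 639 and 342 at its unadjusted threshold and 0 and 0 after Benjamini-Hochberg adjustment (smallest adjusted p 0.181). Without the rat as a replicate block the counts were 2266 and 1290, and 3 named differences lost and 1 gained a call. With 3 replicates as labelled, calls towards CA3 ranged from 0 to 2200 and towards CbG from 0 to 1276 with arrays or rats left out, the highest without replicate 3, and were 1 and 2 towards CbG without CA3-labelled or CbG-labelled replicate 3. Exchanging the replicate 3 labels gave 2222 and 1704, and the paired test as labelled 30 and 3. No named difference called over replicates 1 and 2 changed sign under the alternatives to that fit or with the labels exchanged. As labelled, some did, such as *Grik2* (0.01 against -0.71). The cause of these shifts was not tested beyond what fewer arrays or more probe sets imply. With 2 rats per region, 1 amplified sample per array and no detection calls, signals far below the array median bound the region only loosely.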
